A study of Tachysurus fulvidraco x Tachysurus vachelli with 6 samples.

Results

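Cell adhesion and extracellular matrix genes were examined in the skin of hybrid yellow catfish. The genes were chosen by their protein description, which had to contain collagen, cadherin, integrin, laminin, fibronectin, claudin, keratin, desmo, plakophilin, tenascin or cell adhesion molecule, and 39 of the 2451 genes in the table used here did. Of these 39 genes, 14 have a gene symbol and 25 are named only by a LOC number. The words also caught genes outside the usual meaning of the group. In 6 of the 7 genes with integrin the word is part of disintegrin, a domain name of certain metalloproteinases. The single gene with desmo encodes caldesmon, which binds actin filaments. No gene in the table used here had keratin in its description, and 1 was a true integrin.

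Skin from the left side of juvenile fish of the cross Tachysurus fulvidraco♀ × P. vachellii♂, taken behind the dorsal fin, was sequenced in 3 control libraries and 3 transport libraries. Control fish were untreated and came from a recirculating system, and transport fish spent 16 h in sealed bags of water and oxygen on a shaker. Both groups are of the same cross, with no genetic change, so the bag, its water and the shaking cannot be told apart in the comparison. Transport fish were starved beforehand. The sources used here do not say whether the control fish were, nor whether a library came from 1 fish or a pool.

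Epithelial cells of skin are held together by cadherins at adherens junctions, by desmosomes, which plakophilins anchor to the intermediate filaments, and by claudins, which seal tight junctions. Below the epidermis, collagens and glycoproteins such as laminins, tenascins and fibronectin form the basement membrane and dermis, and integrins attach cells to them. Metalloproteinases of the MMP, ADAM and ADAMTS families cut matrix proteins, procollagens and the outer parts of adhesion receptors. In fish, this layered tissue, with its mucous cells and no dead outer layer, is the barrier to the water.

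The deposited table gives read counts and FPKM (read fragments per transcript length, relative to all fragments mapped in that library). The counts of the 2451 genes used here summed to 3632651 to 4487002 per library, of which the 39 genes held 56981 to 72938. These sums equal 12.0% to 12.5% of the number of reads the study mapped. All genes, in the shares, scaling and p adjustment below, are therefore those of this table and not a whole transcriptome. Across all genes the libraries were scaled with TMM factors (trimmed mean of M values, which set the libraries to a common level), and control replicate 1 stood apart with a factor of 0.712 against 0.968 to 1.17 in the other libraries. These factors moved the log2 fold changes of all genes by a median of -0.30, so a gene with the same FPKM in both groups has a fitted fold change below 0. FPKM below are as deposited, without the factors, and fold changes are from edgeR's quasi-likelihood test with them.

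No adhesion or matrix gene passed the test. A mean FPKM of at least 0.5, the level required for testing, was reached by 22 of the 39 genes, and edgeR called 0 of the 22 at an adjusted p under 0.05, where it called 0.617% of all 1620 genes tested. At an unadjusted p under 0.05, 5 of the 22 had lower estimates after transport and 0 higher, against 9.14% lower and 7.72% higher over all genes. The 5 were the B-cadherin-like, CDON-like, NCAM1-like and ADAM12-like genes and 1 of the ADAM19-like genes (LOC113636100). Such short names stand for the protein each LOC gene is described as resembling, and the genes are introduced one by one below. DESeq2 called 1 of the 22 at the adjusted level, the B-cadherin-like gene, against 9.51% of all genes, and found 6 lower ones without adjustment, against 11.5%. limma on log2(FPKM + 0.5) called 0, against 0.741%, and without adjustment found 1 higher gene, CEACAM5-like, against 16%. Without TMM factors 2 of the 22 had an unadjusted edgeR p under 0.05, both lower (CDON-like and ADAM12-like), against 4.07%. Without control replicate 1 the 5 genes became 3 (B-cadherin-like and CDON-like lower, CEACAM5-like higher), against 16.7% of all genes in either direction. Without transport replicate 1 they became 1 (9.75% of all genes) and without transport replicate 3 they became 2 (9.32%). Without control replicate 3, edgeR called 2 of the 22, the CDON-like gene lower and the CADM2-like gene higher, against 4.01% of all genes.

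**Figure D1:**
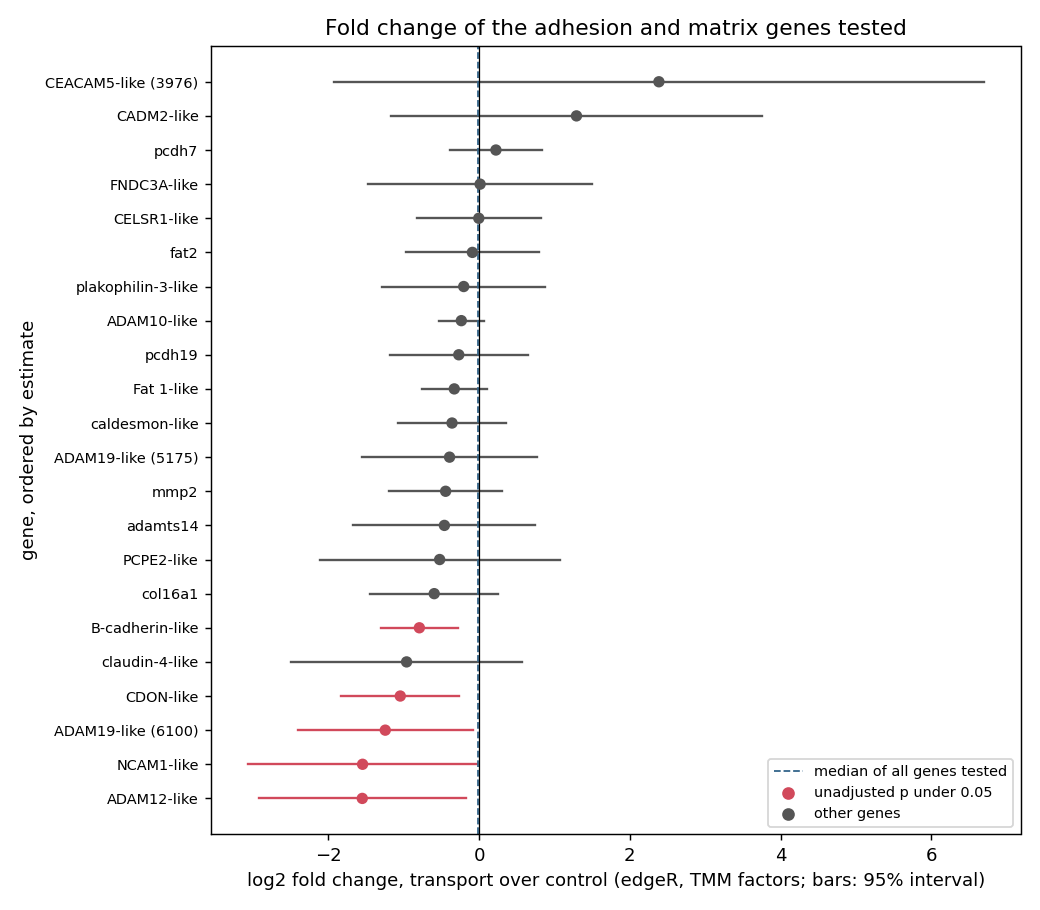
Log2 fold change (transport over control, horizontal axis) of the 22 adhesion and matrix genes tested, with 95% intervals from edgeR as bars and the median of all 1620 genes as a dashed line. Estimates below 0 were found for 18 genes, and the 5 in red, all below 0, had an unadjusted p under 0.05.

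The estimates of the 22 genes tested leaned to the lower side. The median log2 fold change of the 22 genes was -0.38, beside -0.02 for all genes tested, and 18 of the 22 estimates were below 0, beside 52% of all genes. Without TMM factors the median was -0.03, beside 0.27 for all genes, and 13 of 22 estimates were below 0, beside 26.2%. Leaving out control replicate 1 gave a median of -0.19, with 14 of 22 estimates below 0, beside 51.4% of all genes. With no level for testing, 23 of the 39 estimates were below 0 (59%), beside 50.1% of all genes, so the lean was weaker over the whole group. A joint threshold was also applied, a change of 1 or more on the log2 scale in mean FPKM together with an unadjusted edgeR p under 0.05. It was passed by 2 of the 22 genes as lower and 0 as higher, against 3.58% and 4.51% of all genes, and by 0 without transport replicate 1 (5.62% of all genes) or 3 (5.99%). The 2 were the NCAM1-like and ADAM12-like genes. Their transport means were 0.490 and 0.436, so they reached the level for testing through the control libraries, where they were high. The CEACAM5-like and CADM2-like genes, with control means of 0.128 and 0.283, reached it through the transport libraries. The results of the study, though not its methods, also name an FPKM floor. With a mean FPKM above 10 required as well, 0 of the 22 passed, against 1.79% of all genes. In deposited FPKM the 3 transport libraries lay below all control libraries in 3 of the 22 genes (3.7% of all genes tested) and above them in 1 (24.1%). After TMM scaling they lay below in 4 (10.9%) and above in 0 (13%). The standard error of the fold change was larger for these genes, with a median of 0.42 beside 0.26 for all genes, so smaller changes were less detectable in them. The 95% interval lay within 1 on the log2 scale on both sides for 5 of the 22 genes (52.8% of all genes tested). It reached -1 but not 1 for 13 (21.9%), 1 but not -1 for 0 (17.3%), and both for 4 (8.02%).

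**Figure D2:**
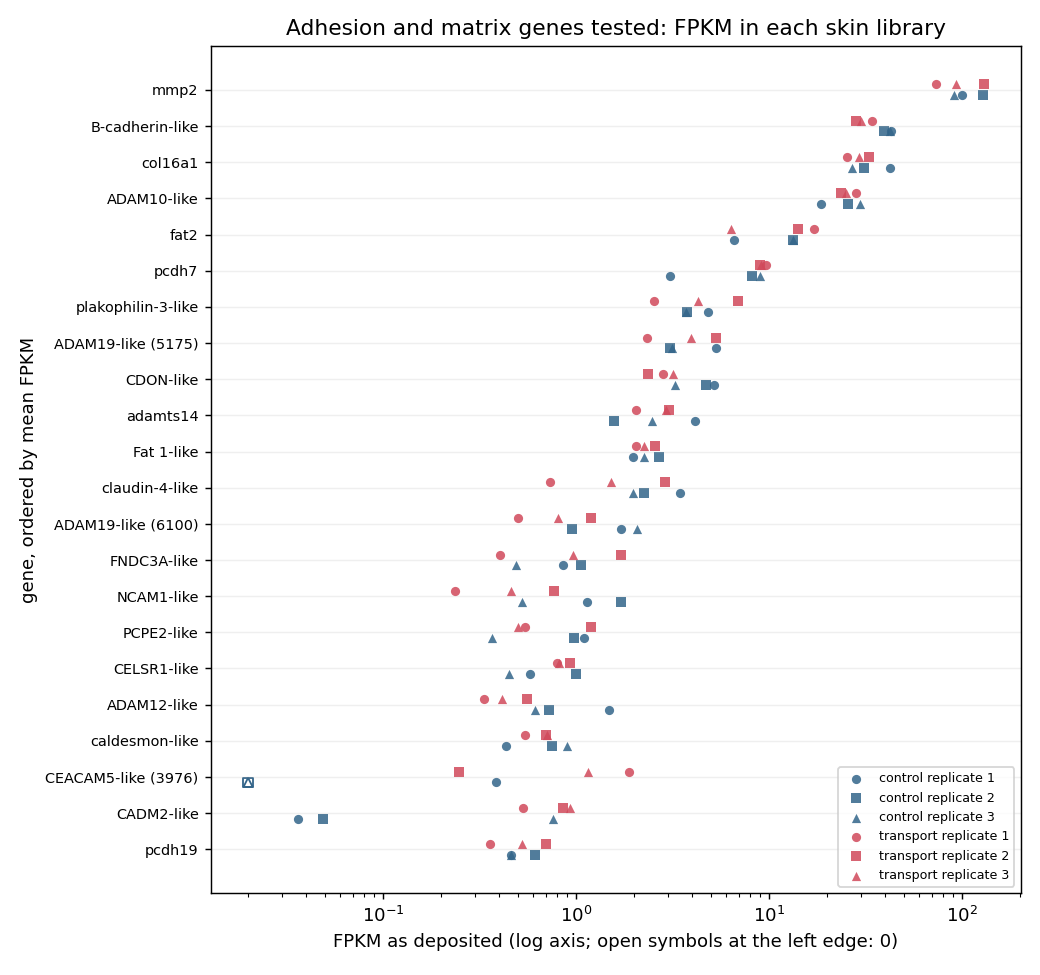
Deposited FPKM (log axis) of the 22 genes tested in each library, with control libraries in blue, transport libraries in red, the replicate number as the marker and open symbols for 0. Levels ran from 0.519 for pcdh19 to 103 for mmp2 on average, and the groups were apart for the B-cadherin-like, CDON-like and ADAM12-like genes (lower) and pcdh7 (higher).

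Of the 22 genes, the B-cadherin-like gene had the smallest p. LOC113634238, described as B-cadherin-like in 1 isoform and cadherin-1-like in another, encodes a calcium-dependent receptor that joins neighbouring epithelial cells at adherens junctions, and it lies on scaffold NW_020848144.1 from 354317 to 391244 on the minus strand. Its FPKM in the control libraries, in replicate order, was 42.7, 39.4 and 42.7, and in the transport libraries 34.1, 28.2 and 29.9. All transport values lay under all control values, also after TMM scaling (two-sided exact permutation test of FPKM, p = 0.1, which 3 against 3 cannot go below). Control libraries averaged 41.6 ± 1.91 (SD, n = 3) and transport libraries 30.7 ± 3.03 (SD, n = 3). The log2 fold change was -0.79 ± 0.21 (standard error, SE, 95% interval -1.30 to -0.28), with an adjusted p of 0.168 in edgeR's test after Benjamini-Hochberg adjustment, 0.0158 in DESeq2 and 0.295 in limma, and a range of 0.0158 to 0.504 over all alternatives. The unadjusted p of edgeR was 0.00827, and it stayed under 0.05 in each of the 6 fits that left out a library (0.00642 to 0.0405). Without TMM factors the log2 fold change was -0.44 and the unadjusted p of edgeR 0.0674.

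The level of the B-cadherin-like gene was also set beside that of another epidermal gene, a comparison chosen after the values were seen. evpl, which encodes envoplakin, a plaque protein of keratinocytes, had an FPKM of 3.93, 11.9 and 19.7 in control skin and of 47.7, 30.4 and 41.7 after transport. Of the epidermal keratinocyte markers these 2 genes were in the table used here. The ratio of B-cadherin-like to evpl FPKM within a library does not depend on the scaling. It was 10.9, 3.30 and 2.17 in the control libraries and 0.715, 0.930 and 0.716 in the transport libraries. The B-cadherin-like gene was lower, and evpl higher, in every transport library than in any control library. The ratio therefore had to separate the groups and adds no evidence of its own.

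The other cadherin-type genes showed smaller differences. fat2, a giant protocadherin which in mammals takes part in the migration of epidermal cells, had an FPKM of 6.61, 13.3 and 13.4 in control skin and of 17.1, 14.2 and 6.39 after transport. Its lowest values were in control replicate 1 and transport replicate 3, so each group held 1 low library, and its log2 fold change was -0.09 (95% interval -0.97 to 0.79) with TMM factors and 0.18 without them. pcdh7, a delta-type protocadherin, had an FPKM of 3.07, 8.21 and 8.96 in control skin and of 9.70, 9.01 and 9.14 after transport. All transport values exceeded all control values in FPKM, but after TMM scaling the groups overlapped, and control replicate 1 was the one low library on both scales. For pcdh7 the log2 fold change was 0.22 (95% interval -0.39 to 0.84), and -0.02 without control replicate 1.

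The Fat 1-like gene LOC113635501, another giant protocadherin, was level across the libraries, with an FPKM of 1.97 to 2.70 in control skin and 2.06 to 2.56 after transport. Its log2 fold change was -0.33, and the interval of -0.76 to 0.10 excluded a change of 1 in either direction. The CELSR1-like gene LOC113635734, whose relative in the mouse orients hair follicles through planar cell polarity, had an FPKM of 0.452 to 0.996 in control skin and 0.795 to 0.930 after transport, with overlapping groups and an interval of -0.82 to 0.82 for the log2 fold change. pcdh19 was at 0.460 to 0.611 and 0.361 to 0.698. Of the 9 cadherin-type genes, 3 were under the level for testing. They were celsr3, which in the mouse guides axons, the protocadherin-11 X-linked-like gene LOC113635802 and the neural-cadherin-like gene LOC113636821, with 43 to 505 counts each over the 6 libraries.

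Desmosome and tight junction genes varied more between the libraries of a group than between groups. The plakophilin-3-like gene LOC113636783 encodes a plaque protein of epithelial desmosomes. Its FPKM was 4.85, 3.78 and 3.73 in control skin and 2.55, 6.92 and 4.31 after transport, so transport replicate 1 had the lowest value of the 6 libraries and transport replicate 2 the highest. A log2 fold change of -0.20 was fitted (95% interval -1.28 to 0.87), and of 0.14 without TMM factors. The claudin-4-like gene LOC113636370, on scaffold NW_020848203.1 from 836894 to 838823, encodes a sealing claudin of tight epithelia. Its FPKM was 3.45, 2.25 and 1.98 in control skin and 0.735, 2.88 and 1.52 after transport. Transport replicate 1 was again the lowest and control replicate 1 the highest, and the log2 fold change was -0.96 ± 0.64 (SE, edgeR adjusted p = 0.467). Its 95% interval ran from -2.50 to 0.57, and the estimate was -0.42 without control replicate 1, -0.59 without transport replicate 1 and -1.62 without transport replicate 2. cldn15, a claudin which in mammals forms cation pores in the intestine, was near the limit of detection with 0, 4 and 2 counts in control libraries and 1, 7 and 4 after transport.

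Among the immunoglobulin-type adhesion molecules, 2 genes had lower estimates at an unadjusted p under 0.05. LOC113633954, described as cell adhesion molecule-related/down-regulated by oncogenes-like and called CDON-like here, belongs to a family of surface proteins that in mammals act as co-receptors for hedgehog ligands and promote muscle differentiation. It lies on scaffold NW_020848133.1 from 182597 to 218922. Its FPKM was 5.21, 4.71 and 3.28 in the control libraries and 2.83, 2.38 and 3.18 in the transport libraries. The groups did not overlap on either scale, but control replicate 3 and transport replicate 3 were close. The mean was 4.40 ± 1.00 (SD, n = 3) against 2.80 ± 0.404 (SD, n = 3). The log2 fold change was -1.05 ± 0.33 (SE, 95% interval -1.83 to -0.26), with an adjusted p of 0.210 in edgeR's test, 0.0516 in DESeq2 and 0.275 in limma. The unadjusted p of edgeR was 0.0167, and it stayed under 0.05 in 4 of the 6 fits that left out a library (0.00166 to 0.0592). Without control replicate 3, the control library nearest to the transport libraries, the log2 fold change was -1.31 and the adjusted p of edgeR 0.0474. It was weaker without control replicate 1, the highest library, at -0.67, and without TMM factors, at -0.66. Over all alternatives the adjusted p ranged from 0.0474 to 0.504.

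The NCAM1-like gene LOC113634930 spans 254926 bases of scaffold NW_020848170.1 and encodes a homophilic receptor known from nerve and muscle. Its FPKM was 1.15, 1.71 and 0.527 in control skin and 0.236, 0.771 and 0.462 after transport. The groups overlapped, since control replicate 3 lay below transport replicate 2. The log2 fold change was -1.55 ± 0.63 (SE, edgeR adjusted p = 0.290, unadjusted p = 0.047), and the gene passed the joint fold and unadjusted p threshold, at levels far below an FPKM of 10. The unadjusted p stayed under 0.05 in 2 of the 6 fits that left out a library. The summed FPKM of the 6 skeletal muscle markers was 11061, 6570 and 2255 in control skin and 2440, 4436 and 3251 after transport. Among these markers, LOC113635959 and LOC113636534 are described as cardiac muscle types and LOC113635167 as a phosphorylase b kinase subunit of skeletal muscle. One gene made up most of this sum, the myosin regulatory light chain 2 gene LOC113636033, with an FPKM of 9075, 3018 and 1467 in control skin. The other 5 markers were higher in control replicate 2 than in control replicate 1, as the NCAM1-like gene was. All 6 markers took the order of the NCAM1-like gene in the transport libraries. So did 23.7% of all genes tested and 13 of the 22 genes, the NCAM1-like gene among them. Of the 6 markers, 5 had estimates below 0, beside 52% of all genes. The troponin I gene LOC113635612 was above 0, with a log2 fold change of 0.73. The part of muscle in the difference was not tested. In bulk skin, fewer cells of a type and less RNA per cell cannot be told apart.

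The remaining adhesion molecules had few reads. The CADM2-like gene LOC113635014, a synaptic type of adhesion molecule in mammals, had 4, 4 and 65 counts in control libraries and 43, 74 and 88 after transport. Control replicate 3 was at the level of the transport libraries and the other control libraries were near 0. The log2 fold change was 1.29 ± 1.03 (SE, edgeR adjusted p = 0.547), and without control replicate 3 it was 3.60, with an adjusted p of 0.0402 in the same test. The scaffold NW_020848134.1 carries 3 genes described as carcinoembryonic antigen-related cell adhesion molecule 5-like (CEACAM5-like), whose human relative is a surface protein of epithelia. LOC113633976, the one tested, had 76, 0 and 0 counts in control libraries and 305, 44 and 225 after transport. LOC113633968 had 10, 0 and 0 against 26, 0 and 42, and LOC113633983 had 0, 10 and 17 against 27, 13 and 45. Since such copies can share reads, their counts were also summed, which gave 86, 10 and 17 in control libraries and 358, 57 and 312 after transport. Transport replicate 2 lay below control replicate 1, so the groups overlapped, and the log2 fold change was 2.39 ± 1.79 (SE) for the gene tested and 2.21 for the sum (adjusted p = 0.339 in edgeR's test). Without control replicate 1 the control counts of LOC113633976 are all 0 and its fitted fold change is no bound (edgeR adjusted p = 0.128), and without any other single library the log2 fold change was 1.76 to 2.84. cadm1, with 38, 52 and 47 counts against 21, 47 and 34, and the Dscam2-like gene LOC113634921, with 23, 9 and 19 against 28, 42 and 34, were under the level for testing.

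The most abundant of the 39 genes was mmp2, described as a type IV collagenase and known as gelatinase A, which cuts denatured collagens and basement membrane collagen. It lies on scaffold NW_020848223.1 from 5594870 to 5613375. Its FPKM was 101, 129 and 90.8 in control skin and 73.5, 129.9 and 93.1 after transport. The groups overlapped almost fully, with a mean of 107 ± 20.1 (SD, n = 3) against 98.8 ± 28.6 (SD, n = 3), and the log2 fold change was -0.44 (95% interval -1.19 to 0.30). It was -0.29 and -0.25 without control and transport replicate 1, and -0.73 without transport replicate 2. col16a1 encodes collagen XVI, a fibril-associated collagen found near basement membranes of skin. Its FPKM was 42.6, 31.1 and 27.1 in control skin and 25.5, 33.1 and 29.2 after transport, with control replicate 1 alone above the rest. The log2 fold change was -0.60 ± 0.35 (SE, edgeR adjusted p = 0.430), and -0.13 without control replicate 1.

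The other collagen-type genes were low. The procollagen C-endopeptidase enhancer 2-like gene LOC113635107 (PCPE2-like) encodes a helper of the protease that trims fibrillar procollagen. It had an FPKM of 0.366 to 1.10 in control skin, the transport values overlapped these, and its log2 fold change was -0.52 ± 0.66 (SE). col9a2, a cartilage collagen gene 3954 bases from col16a1 on scaffold NW_020848162.1, had 10 counts over all libraries, so the neighbours differed greatly in level. The chains of collagen I, the main dermal collagen, are not among the genes analysed here.

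All 5 tested disintegrin metalloproteinases had estimates below 0 with TMM factors, beside 52% of all genes tested. Without the factors 4 did (not ADAM10-like), beside 26.2% of all genes. Of these 4, the ADAM19-like gene LOC113635175 at -0.0072 and adamts14 at -0.047 were then close to no change. With the factors, 2 of the 5 were lower at an unadjusted edgeR p under 0.05, beside 9.14% of all genes. The ADAM12-like gene LOC113634087, whose mammalian relative is linked to cell fusion and to the growth of muscle and fat tissue, lies on scaffold NW_020848137.1 from 1464294 to 1559247. Its FPKM was 1.48, 0.723 and 0.612 in control skin and 0.335, 0.557 and 0.414 after transport. The groups did not overlap on either scale, and control replicate 1 was well above all other libraries. The log2 fold change was -1.55 ± 0.57 (SE, edgeR adjusted p = 0.244, unadjusted p = 0.0322), and -0.75 without control replicate 1. It was the other gene past the joint threshold, also far below an FPKM of 10.

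The table holds a pair of ADAM19-like genes on different scaffolds, relatives of a mammalian protease that releases growth factors from the cell surface. LOC113636100 (scaffold NW_020848201.1, 4120144 to 4146612) had an FPKM of 1.71, 0.955 and 2.06 in control skin and 0.499, 1.198 and 0.810 after transport, with transport replicate 2 above control replicate 2. Its log2 fold change was -1.25 ± 0.48 (SE, edgeR adjusted p = 0.262, unadjusted p = 0.0391). LOC113635175 (scaffold NW_020848182.1, 108807 to 185292) had an FPKM of 5.29, 3.06 and 3.14 in control skin and 2.33, 5.32 and 3.94 after transport, and a log2 fold change of -0.39 ± 0.48 (SE). The FPKM ratio of LOC113635175 to LOC113636100 within a library was 3.10, 3.20 and 1.52 in control skin and 4.67, 4.44 and 4.87 after transport. The groups did not overlap in this ratio, which was chosen after the values were seen and does not depend on the scaling. In each gene alone the groups overlapped. How many gene pairs separate in this way was not counted, so no conclusion is drawn from the ratio.

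The ADAM10-like gene LOC113636788 encodes a protease that in mammals sheds the outer part of notch receptors and cadherins. It was among the steadiest of the 22 genes, with an FPKM of 18.6, 25.6 and 29.6 in control skin and 28.4, 23.7 and 25.1 after transport. Its log2 fold change was -0.24 ± 0.12 (SE), and the 95% interval of -0.54 to 0.06 excluded a change of 1 in either direction. After TMM scaling all its transport values lay under all control values, and without the factors the log2 fold change was 0.06, so its direction rests on the scaling. adamts14, which removes the amino-terminal propeptide of procollagen, had an FPKM of 4.14, 1.57 and 2.47 in control skin and 2.05, 3.05 and 2.93 after transport. Its log2 fold change was -0.46, and 0.29 without control replicate 1. adam23, a member of the family without protease activity in mammals, was under the level for testing with 21 to 55 counts in control libraries and 6 to 44 after transport.

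Integrin, laminin, tenascin and fibronectin descriptions brought in mostly rare transcripts. Of these 8 genes 1 was tested, the FNDC3A-like gene LOC113635933, which has fibronectin type III domains. Its FPKM was 0.862, 1.06 and 0.491 in control skin and 0.402, 1.72 and 0.967 after transport, and its log2 fold change was 0.01 ± 0.62 (SE). The integrin alpha-11-like gene LOC113636680, a collagen receptor of fibroblasts in mammals, had 76, 20 and 112 counts in control libraries and 25, 25 and 47 after transport. The FNDC5-like gene LOC113634646, the precursor of irisin in mammals, had 70, 32 and 17 counts against 14, 296 and 105. tspear, with a thrombospondin-type laminin G domain, had 0, 33 and 23 counts against 4, 30 and 17.

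The tenascins are large matrix glycoproteins. tnr, known from the matrix around neurons in mammals, had 16, 0 and 12 counts in control libraries and 42, 47 and 94 after transport. All transport values exceeded all control values on both scales, and of the 17 untested genes this held on both scales for tnr alone. Among all genes tested, 24.1% were above in this way in FPKM and 13% after TMM scaling, so tnr does not stand out by it. On a single scale, the Dscam2-like gene was above in FPKM and cadm1 below after TMM scaling. In a fit without a level for testing, the log2 fold change of tnr was 2.30 ± 1.24 (SE) with an adjusted p of 0.469 in edgeR's test. tnn, 10349 bases away on scaffold NW_020847771.1, had 4, 0 and 0 counts against 8, 8 and 0. The tenascin-X-like loci LOC113636431 and LOC113636432 are neighbours on scaffold NW_020848204.1. LOC113636432 had 0 counts in every control library and 0, 5 and 8 after transport, and LOC113636431 had 4, 0 and 0 against 0, 11 and 0. For LOC113636432 a count of 0 over the control group allows up to 3 counts if only sampling noise is present, against 13 after transport. Libraries of a group varied by more than that noise, so this bound is too narrow. The unadjusted p of edgeR for this gene was 0.124. Over all 17 untested genes, whose counts summed to 10 to 534 per gene, the fit without a level for testing gave adjusted p-values from 0.439 upwards, and edgeR's lowest unadjusted p was 0.089.

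The caldesmon-like gene LOC113635960 encodes a protein of actin filaments in smooth muscle and other cells. Its FPKM was 0.435 to 0.895 in control skin and 0.546 to 0.709 after transport, and its fitted change was -0.36 on the log2 scale (95% interval -1.08 to 0.36).

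**Figure D3:**
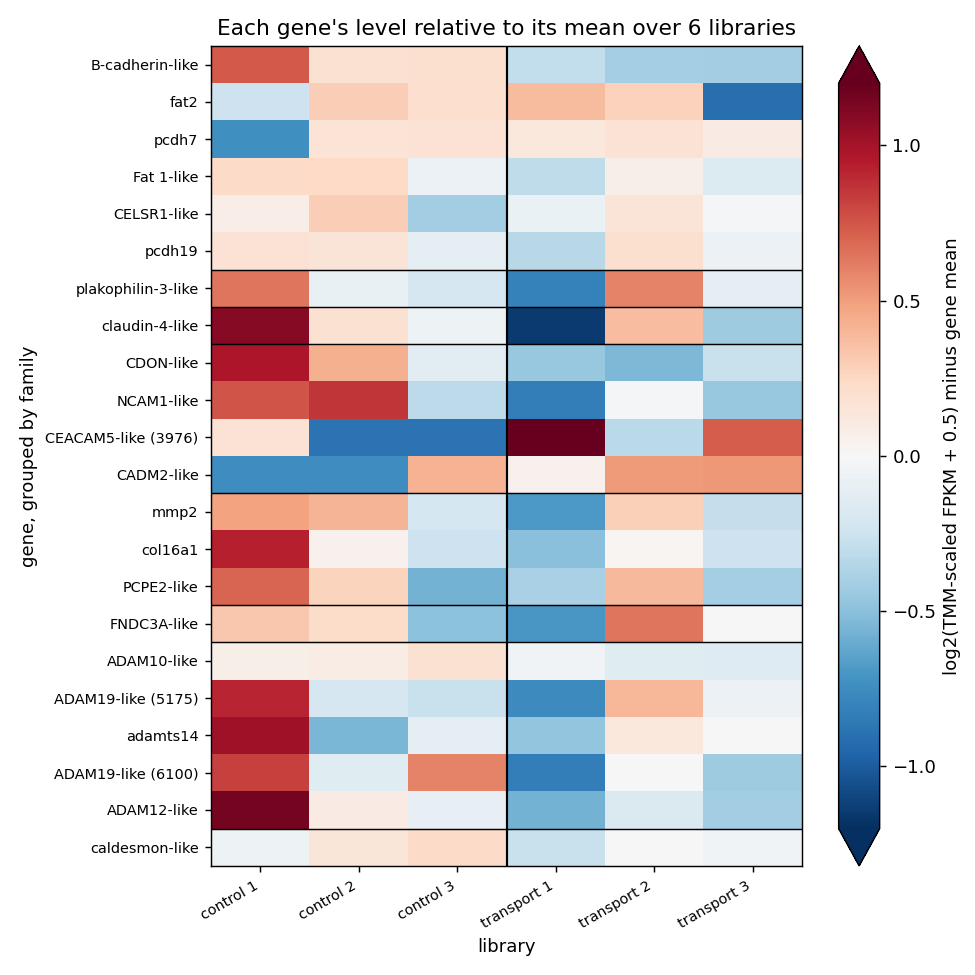
Level of the 22 genes tested in each library as log2(TMM-scaled FPKM + 0.5) minus the mean of the gene, grouped by family, with the control libraries left of the line. Control replicate 1 holds the highest value of 11 genes and transport replicate 1 the lowest of 12, while the B-cadherin-like gene is above its mean in all control libraries and below it in all transport libraries.

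A large part of the spread of these genes lay between libraries of the same group. After TMM scaling, control replicate 1 had the highest value of 11 of the 22 genes, beside 17.8% of all genes tested. Transport replicate 1 then had the lowest of 12, beside 19.3%. In deposited FPKM control replicate 1 was highest in 6 of the 22 (5.25% of all genes) and lowest in 5 (63.3%). Transport replicate 1 was lowest in 10 on that scale (10%). Transport replicate 1 was below transport replicate 3, and that below transport replicate 2, in the FPKM of 13 of the 22 genes, beside 23.7% of all genes. This order was not planned before the values were seen, so no conclusion is drawn from it. The 13 include mmp2, col16a1, adamts14, both ADAM19-like genes, the ADAM12-like gene, the claudin-4-like gene and the plakophilin-3-like gene. The summed FPKM of the skeletal muscle markers took the same order in the transport libraries. So did that of sparc, a collagen-binding glycoprotein of the dermis, with 4408, 282 and 1363 in control skin and 853, 2111 and 1322 after transport. In the control libraries their orders differed, with the marker sum lowest in replicate 3 and sparc in replicate 2. The part of tissue composition in the spread was not tested. Fibroblast, leucocyte and erythrocyte markers were not among the genes analysed here.

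As a set, the genes also differed from all genes in span, level and annotation. Their span on the scaffold had a median of 36068 bases, beside 8415 bases for all genes, and 33.3% of them spanned over 50000 bases, beside 7.43%. The median of their mean FPKM was 0.614, beside 2.17. Membrane was an annotation of 59% and calcium ion binding of 23.1%, beside 24.7% and 2.61% of all genes. These annotations follow in part from the choice of cadherins and other adhesion receptors by description. Of the 39 genes, 10 have a protein record marked as low quality, a share of 25.6% beside 11.3% of all genes, and the gene models and FPKM of these 10 are less certain.

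Other genes of adhesion and matrix that the words of the rule did not catch were taken from 5 lists: matrix proteases and inhibitors, proteoglycans and matrix glycoproteins, matrix cross-linking enzymes, junction proteins and focal adhesion proteins. Of 34 such genes 23 were tested, and edgeR called 0 at an adjusted p under 0.05, though without adjustment 2 were higher and 2 lower at that level, close to the 7.72% and 9.14% of all genes. DESeq2 called 3, evpl, LOC113633958 and plau, beside 9.51% of all genes, and limma called 0. The median log2 fold change of the 23 was -0.32. Junction proteins held both higher genes among 7 tested. They were evpl (log2 fold change 1.54 ± 0.42, SE) and a cingulin-like protein 1 gene, LOC113633958 (0.90 ± 0.25), whose family lies at the cytoplasmic face of tight and adherens junctions. The FPKM of LOC113633958 was 10.5, 18.7 and 27.8 in control skin and 49.6, 32.1 and 45.7 after transport, with no overlap.

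The lower genes were plau and vcl. plau, which encodes the urokinase-type plasminogen activator and sets off the breakdown of matrix, had an FPKM of 3.48, 2.18 and 3.08 in control skin and 1.80, 1.81 and 1.10 after transport. Its groups did not overlap, and the log2 fold change was -1.27 ± 0.40 (SE, edgeR adjusted p = 0.210). vcl, which encodes vinculin, a link between integrins or cadherins and actin, had a log2 fold change of -1.12 ± 0.35 (SE, edgeR adjusted p = 0.210), and its groups overlapped. The vinculin-like gene LOC113634801 was more abundant, with a mean FPKM of 16.9 beside 2.39 for vcl, and did not share this change. Its log2 fold change was -0.09 ± 0.24 (SE). Its transport values all exceeded its control values in deposited FPKM and overlapped them after TMM scaling. Of 5 proteoglycan and glycoprotein genes and 2 cross-linking genes tested, edgeR gave 0 with an unadjusted p below 0.05.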

How the data were processed

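Skin mRNA of 3 control and 3 transport libraries was measured. The authors selected poly(A) RNA, filtered reads with Cutadapt, mapped with HISAT and built transcripts with StringTie. The paper is not uniform on the reference: human is named in its methods, yellow catfish in its results. Scaffold and gene identifiers in the table are those of yellow catfish. Versions, build and strandedness are not stated in the sources used. The deposited table holds whole read counts, not normalized, and FPKM values that the authors made with StringTie, scaled to transcript length and mapped fragments. Scaffold positions are as in the table. Of 2452 rows 1 was incomplete and was dropped, and 12 columns of other samples were not used.

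Counts were tested in R 4.3.3 with edgeR 4.0.16 (quasi-likelihood, TMM factors, the mapped reads of the study as library sizes, condition as the only term) over 1620 genes whose mean FPKM reached 0.5, with Benjamini-Hochberg adjustment. Standard errors were derived from fold change and F, and 95% intervals from the same fit. DESeq2 1.42.0 and limma 3.58.1 on log2(FPKM + 0.5) were alternatives, with changes of scaling, filter, dispersion, a replicate block and leaving out each library. The procedure was tested on simulated data.

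The genes and lists were chosen with earlier results of these data known. Named are, by rule, tested genes past the thresholds, the most abundant and those of smallest p in each family, and all other members for completeness. vcl, LOC113634801 and cgnl1 were named after their values were seen, and the disintegrin and caldesmon families were set apart after the descriptions were seen. Replicates are those of the labels. The p-values of edgeR set the difference between groups against the spread between libraries, estimated in part from all genes tested. Counts of libraries of a group differed far beyond sampling noise (chi-square per gene 48.3 to 757). Libraries with the same replicate number did not deviate together (correlations -0.108, 0.0812 and 0.0873), so they were not treated as pairs.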

Additional observations from a re-analysis of the deposited data

How the results depend on the processing

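The values of the 22 genes tested were recomputed under up to 18 alternatives (6 of them had a value at a mean FPKM of at least 5), and the causes of the shifts were not tested. Of 381 gene values so obtained, 340 kept their direction. Robust dispersion left the estimates as they were, and library sizes taken from the summed counts barely moved them. Under these settings the direction could hardly change, so they add no support to that count. The count of adhesion and matrix genes past an adjusted p of 0.05 was 0 in edgeR, 1 in DESeq2, and 0 to 2 when 1 library was left out. The count at an unadjusted p under 0.05 was 5, but 2 without TMM factors, 1 with a mean FPKM of at least 5 (which left 6 genes tested), 1 in limma at pseudocounts of 0.5, 1 and 0.1, and 1 to 7 when 1 library was left out. The count past the fold and unadjusted p thresholds was 2, but 1 without factors, 0 with a mean FPKM of at least 5, 1 in limma at each pseudocount, and 0 to 3 when 1 library was left out. In both of these counts the genes were lower after transport, with some exceptions. The 1 gene in limma was higher, and 1 gene was higher without control replicate 1 and 1 without control replicate 3. In limma at a pseudocount of 0.5, 16% of all genes were higher at an unadjusted p under 0.05. The median log2 fold change of the 22 genes was -0.38, but -0.032 without factors and -0.65 to -0.19 when 1 library was left out. In limma at pseudocounts of 0.5, 1 and 0.1 it was -0.0092, -0.0069 and -0.012. All genes tested had medians of -0.02 with TMM factors, 0.27 without them and, in limma, 0.285, 0.255 and 0.32. In limma 12 of the 22 estimates were below 0 at each pseudocount, beside 23.6%, 23.9% and 23% of all genes.

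With a replicate block, which rests on a number the libraries only share, 2 genes had an unadjusted p under 0.05 and 0 passed the fold thresholds, and edgeR called 0 of all 1620 genes in place of 10. Under this block FNDC3A-like (LOC113635933) was at -0.078 and CELSR1-like (LOC113635734) at 0.074.

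Of 41 values that changed direction, 18 were in limma, which differs in test, measure and scaling, 14 with 1 library left out and 5 without factors. Without factors ADAM10-like was at 0.064, pcdh19 at 0.042, plakophilin-3-like at 0.14, fat2 at 0.18 and CELSR1-like at 0.32. In limma, in the same order of pseudocounts, ADAM10-like was at 0.085, 0.083 and 0.087, adamts14 at 0.040, 0.027 and 0.057, pcdh19 at 0.015, 0.012 and 0.015, plakophilin-3-like at 0.056, 0.058 and 0.052, fat2 at 0.131, 0.127 and 0.134, and CELSR1-like at 0.22, 0.15 and 0.35. CELSR1-like was at 0.0010 with no level for testing and at 0.00041 with edgeR's own filter. With 1 library left out, adamts14 ran from -0.79 to 0.29, pcdh7 from -0.023 to 0.37, LOC113635175 from -0.74 to 0.19, LOC113635107 from -1.10 to 0.0070, plakophilin-3-like from -0.68 to 0.17, fat2 from -0.33 to 0.24, FNDC3A-like from -0.63 to 0.40 and CELSR1-like from -0.29 to 0.26. Genes of the other lists were recomputed in DESeq2 and limma only. Summing the carcinoembryonic antigen-related copies was chosen after seeing the data.

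With 3 libraries a group, a median standard error of 0.42 limits what these genes can show, and for 17 of the 39 the depth gave 10 to 534 counts over all libraries.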
